A study of Mus musculus with 14 samples.

Results

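Pyruvate dehydrogenase, 3 of its kinases and pyruvate carboxylase were described across 3 feeding groups of mice: Pdha1, Pdhb and Dlat for the complex, Pdk1, Pdk2 and Pdk4 for the kinases, and Pcx for the carboxylase. The members were all probe sets that the array's annotation assigns to these 7 symbols, which gave 16 of 22690 probe sets and 7 of the 12393 genes named by 1 symbol. RNA of epididymal fat, a white fat depot, had been hybridised to Affymetrix mouse arrays, 1 array a mouse, from 14 males by label of the ICR strain at 3 weeks of age. UC mice (n = 5) were carried by dams given 50% less food in pregnancy and were suckled by dams fed ad libitum. UU mice (n = 4) were carried and suckled under the same 50% restriction. CC mice (n = 5) had dams with free access to chow throughout. The restriction acts on the dam and on her whole litter, and the labels do not say which mice were littermates, so p-values treat every array as an independent animal. UC against CC and UU against CC ask how fat differs after restriction followed by ample or by scarce milk, and UC against UU compares the suckling periods within mice restricted in utero.

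Pyruvate dehydrogenase is the mitochondrial complex that turns pyruvate into acetyl-CoA and so joins glycolysis to the citric acid cycle and, in fat, to the making of fatty acids. Its first enzyme is built from an alpha subunit, Pdha1, and a beta subunit, Pdhb, and its second enzyme, Dlat, passes the acetyl group to coenzyme A by way of lipoic acid. Pyruvate dehydrogenase kinases phosphorylate the alpha subunit and switch the complex off, and Pdk4 is the isoform known to be induced by fasting and by fatty acids. Pyruvate carboxylase, Pcx, sends pyruvate instead to oxaloacetate, which in adipocytes serves citrate export and the making of glycerol.

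The genes lie on different chromosomes (RefSeq, build GRCm38.p6): Pdha1 on chromosome X from 160122219 to 160138430, Pdhb on chromosome 14 from 8165991 to 8173303, Dlat on chromosome 9 from 50634633 to 50659780, Pdk1 on chromosome 2 from 71873215 to 71903858, Pdk2 on chromosome 11 from 95026258 to 95041371, Pdk4 on chromosome 6 from 5483351 to 5496278, and Pcx on chromosome 19 from 4510472 to 4621752. RefSeq promoter windows, 250 bases before and 50 after a transcript start, matched all 7 genes. Those of the 3 complex subunits are printed because the brightest probe sets of these genes varied together over samples. That of Pdk4 is printed because its signals spread most widely. All 4 lie on the minus strand and read 5′ to 3′: Pdha1 at chrX:160138381-160138680, Pdhb at chr14:8172943-8173242, Dlat at chr9:50659731-50660030 and Pdk4 at chr6:5496229-5496528. Capitals mark matches on either strand to the motifs searched, so that a CCAAT box of the other strand reads ATTGG and ACGTG reads CACGT.
Pdha1: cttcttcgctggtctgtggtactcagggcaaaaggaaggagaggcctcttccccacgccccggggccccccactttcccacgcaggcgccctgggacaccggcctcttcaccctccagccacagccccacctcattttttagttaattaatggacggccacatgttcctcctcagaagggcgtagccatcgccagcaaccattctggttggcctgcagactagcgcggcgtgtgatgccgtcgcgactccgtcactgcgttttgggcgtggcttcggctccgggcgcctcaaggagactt
Pdhb: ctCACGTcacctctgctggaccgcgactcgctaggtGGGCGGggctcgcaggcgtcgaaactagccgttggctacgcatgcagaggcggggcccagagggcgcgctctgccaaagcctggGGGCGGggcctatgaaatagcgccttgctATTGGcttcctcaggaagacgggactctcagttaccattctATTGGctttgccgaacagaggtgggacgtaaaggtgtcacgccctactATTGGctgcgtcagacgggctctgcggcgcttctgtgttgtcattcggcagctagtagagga
Dlat: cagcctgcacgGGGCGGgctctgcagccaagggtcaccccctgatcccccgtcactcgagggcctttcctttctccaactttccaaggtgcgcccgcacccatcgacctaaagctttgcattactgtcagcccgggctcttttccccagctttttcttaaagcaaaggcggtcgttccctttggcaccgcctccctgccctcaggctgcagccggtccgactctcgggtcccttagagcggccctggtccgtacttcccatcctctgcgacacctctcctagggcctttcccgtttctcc
Pdk4: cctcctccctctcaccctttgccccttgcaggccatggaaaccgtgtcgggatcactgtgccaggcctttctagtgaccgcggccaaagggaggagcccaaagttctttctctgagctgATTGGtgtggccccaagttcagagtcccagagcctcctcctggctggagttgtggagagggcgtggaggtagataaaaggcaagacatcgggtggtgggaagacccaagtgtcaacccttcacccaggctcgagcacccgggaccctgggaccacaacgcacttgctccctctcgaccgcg
The motifs were the CCAAT box (CCAAT), held by 37.4% of all 32851 mouse windows of this length, the GC box (GGGCGG, 35.7%), the nuclear receptor half-site (AGGTCA, 16.3%), the forkhead core (GTAAACA, 3.65%), the hypoxia response core (ACGTG, 19.6%) and the TATA box (TATAAA, 13.6%). The Pdhb window holds 3 CCAAT boxes, 2 GC boxes and 1 ACGTG. The Dlat window holds 1 GC box, the Pdk4 window holds 1 CCAAT box, and the Pdha1 window holds none of these letters. None of the matches printed overlaps another, and a match describes letters, not a bound site.

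Some arrays gave signals of markers of other tissues or against their labels, and these values stand beside the results they touch. CC replicate 2 and UC replicate 5, both labelled male, had Xist signals of 14479.3 and 9136.8, against at most 80.1 in the other 12 samples, and Eif2s3y, which lies on the Y chromosome, was at 58.6 and 7.9 there and at 1234.9 or more elsewhere. The same samples were highest for 4 of the 7 brown adipocyte markers measured: Ucp1, the uncoupling protein of brown fat, reached 8935.1 and 17040.8 in them and lay between 18.7 and 642.4 in the rest, and Cidea, Cox7a1 and Cox8b were likewise highest there, while Elovl3, Dio2 and Ppargc1a were not the highest in both. The mean log2 level of the 7 brown markers ran from 8.10 to 11.60 in UC, 8.24 to 9.28 in UU and 8.30 to 11.35 in CC. Gpx5, a marker of epididymal epithelium, was at 409.6 to 1155.1 in these 2 samples, CC replicate 4 and UC replicate 2, and at 5710.8 to 69623.9 in the other 10. UC replicate 2 carried liver transcripts, with Alb, the albumin of liver, at 25660.3 against at most 3190.5 elsewhere. The mean log2 level of the 11 liver markers ran from 8.21 to 12.11 in UC, 8.44 to 8.88 in UU and 7.59 to 8.42 in CC. All 7 liver markers tested lay above 0 in UC against CC, 5 of them at an unadjusted p under 0.05, where 4.80% of all genes were higher. CC replicates 2 and 5 carried skeletal muscle transcripts, with Acta1, the actin of skeletal muscle, at 7452.9 and 9065.2 there and at most 873 elsewhere. The mean log2 level of the 11 muscle markers was 10.91 and 10.76 in them, against 7.47 to 8.03 in UC, 7.48 to 8.64 in UU and 7.07 to 7.73 in the other 3 CC samples. Adipocyte markers were on every array, with Adipoq at 25262.8 or more, and the mean log2 level of the 7 measured ran from 13.50 to 14.49 in UC, 12.55 to 13.64 in UU and 13.66 to 14.40 in CC. The log2 ratio of 3′ to 5′ signal of Gapdh and Actb, a sign of RNA quality, ran from 0.90 to 1.63 in UC, 0.75 to 2.10 in UU and 0.40 to 1.08 in CC. Every array had been scaled to a trimmed mean signal of 1500.

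None of the 7 genes passed an adjusted p of 0.05 in any comparison (limma, Benjamini-Hochberg over 7436 genes), although all 7 genes and all 16 probe sets were bright enough to be tested. Over all genes tested the share that passed was 0% between UC and CC, 0% between UU and CC and 0.847% between UC and UU, where 54 genes were higher and 9 lower in UC. At an unadjusted p under 0.05, 0 of 7 were higher in UC than in CC, where 4.80% of all genes were. In UU against CC 1 of 7 was lower, Pdha1, against 7.75% of all genes, and in UC against UU 1 of 7 was higher, Dlat, against 9.24%. Pdha1 in UU against CC was also the only one of the 7 whose groups did not overlap, which for all genes was 3.63% in that direction. None of the 7 lay wholly above CC in UC or wholly above UU in UC, against 0.995% and 3.54% of all genes.

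Log2 differences are the group named first minus the group named second. By their brightest probe sets, all 7 genes had lower mean log2 signals in UU than in CC, with a median log2 difference of -0.41. Of all genes, 55.3% lay above 0 and their median was 0.05. Of the other probe sets, Pdhb 1448214_at, Dlat 1452005_at and Pdk1 1423748_at lay above 0 there, at 0.81, 0.26 and 0.23, and the rest lay below. Between UC and UU 5 of the 7 genes lay above 0, with a median of 0.41 against -0.06 over all genes. Between UC and CC 4 of 7 lay above 0, with a median of 0.0029 against -0.0043. These comparisons share their UC, UU or CC samples, so their counts are not independent of each other. Without the 2 samples with Xist signal, 6 of 7 lay below 0 in UU against CC, because Pdk4 turned to 0.03.

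**Figure D1:**
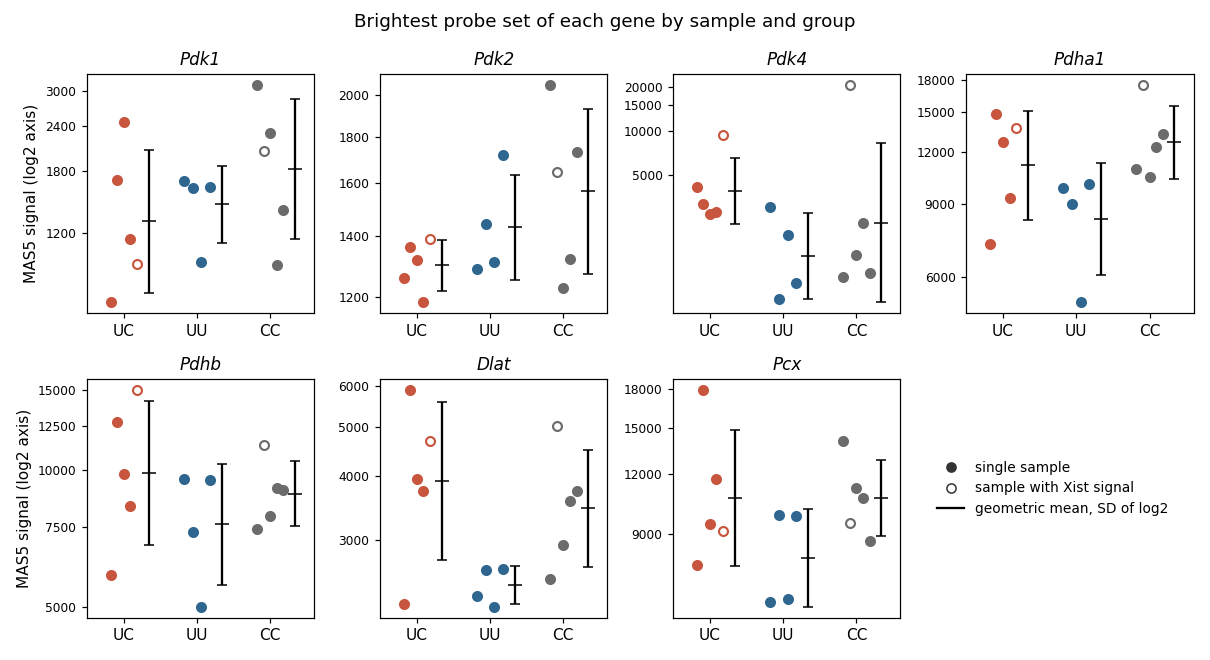
MAS5 signal (log2 axis) of the brightest probe set of each gene in every sample, in UC, UU and CC, with the geometric mean and the SD of the log2 values; open circles are CC replicate 2 and UC replicate 5. The 4 UU samples of Pdha1, at most 10062.6, lie below every CC sample, and the 2 open circles are the highest Pdk4 signals.

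**Figure D2:**
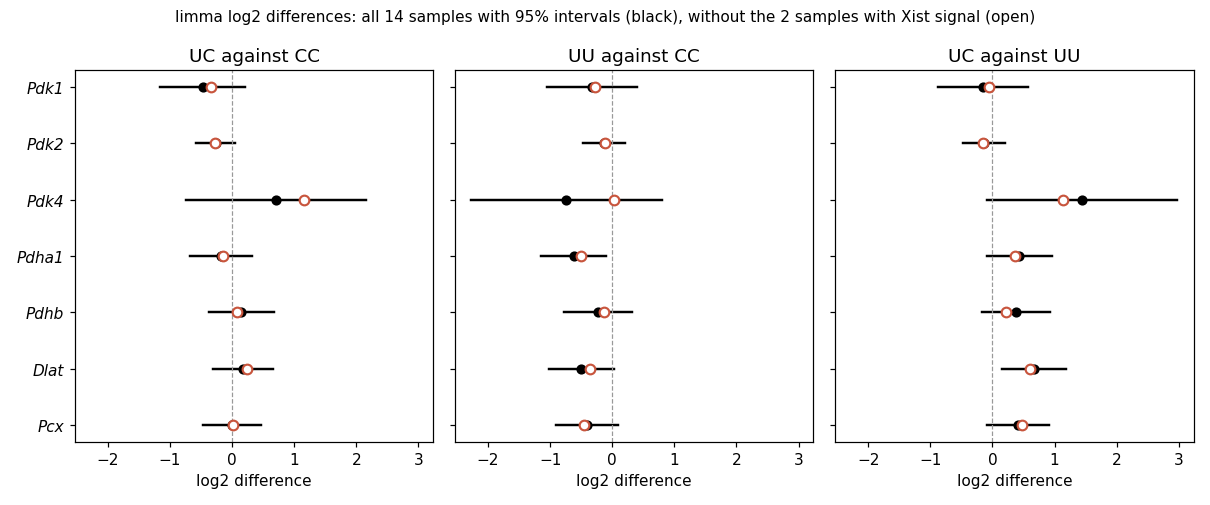
limma log2 differences of the 7 genes for the 3 pairs of groups, with 95% intervals over all 14 samples (black), and the differences without CC replicate 2 and UC replicate 5 (open). The intervals of Pdha1 in UU against CC and of Dlat in UC against UU do not cross 0, and no adjusted p passed 0.05.

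Pdha1, the catalytic alpha subunit, was lower in UU than in CC by unadjusted p, and UC did not stand apart from either. Its brightest probe set read 7193, 14906, 12742, 9330 and 13743 in UC replicates 1 to 5, 9870.2, 9021, 5202 and 10063 in UU replicates 1 to 4, and 10954, 17478, 10489, 12367 and 13319 in CC replicates 1 to 5. All 4 UU samples lay below all 5 CC samples, though the nearest pair differed little, and the UC samples spanned most of the range of both. The log2 difference was -0.62 ± 0.25 in UU against CC (SE, limma adjusted p = 0.236), 0.44 ± 0.25 in UC against UU (adjusted p = 0.361) and -0.18 ± 0.23 in UC against CC (adjusted p = 0.842). UU replicate 3, the lowest sample, had the highest 3′ to 5′ ratio, and without it the UU against CC difference was -0.40 (adjusted p = 0.559). The highest CC value was that of CC replicate 2, and without it and UC replicate 5 the difference was -0.50 (adjusted p = 0.369), with an unadjusted p no longer under 0.05. The second probe set, 1449137_at, correlated with the first at r = 0.83 over the 14 samples. It averaged 2383 ± 774 in UC, 2060 ± 533 in UU and 2597 ± 425 in CC (SD), and its UU against CC difference was -0.35 ± 0.24 (adjusted p = 0.467).

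Pdhb, the beta subunit, showed no difference past the test, and its 2 probe sets did not move together. The brightest, 1416090_at, read 5898, 12748, 9837, 8364 and 15055 in UC, 9580.3, 7316, 5006 and 9511 in UU, and 7415, 11367, 7935, 9154 and 9042 in CC, in replicate order. All 3 groups overlapped, with UC both lowest but one and highest of all. Its log2 difference was 0.15 ± 0.24 between UC and CC, -0.22 ± 0.26 between UU and CC and 0.37 ± 0.26 between UC and UU (limma adjusted p = 0.881, 0.673 and 0.456). The dimmer probe set, 1448214_at, read 1042, 1117, 589, 1333 and 1084 in UC, 823, 1061, 1038 and 720.4 in UU, and 847, 329.5, 283, 991 and 379.6 in CC. There, 3 of the 5 CC samples lay below every UC and UU sample and the other two inside their range. This probe set gave 0.96 ± 0.32 in UC against CC (limma adjusted p = 0.493) and 0.81 ± 0.34 in UU against CC (adjusted p = 0.261). The correlation of the 2 Pdhb probe sets over the 14 samples was -0.12, so that the sign of Pdhb in UU against CC depended on which was read, and the mean of both gave 0.29.

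Dlat, the lipoyl-bearing second enzyme, was lowest in UU by its 2 brighter probe sets, and was the member with the smallest p in UC against UU. Its brightest probe set, 1426265_x_at, read 2240.2, 5916, 3943, 3743 and 4683 in UC, 2327, 2620.2, 2213 and 2631 in UU, and 2506, 5023, 2933, 3576 and 3734 in CC. The UU samples were the tightest group, and 4 of 5 UC samples and 4 of 5 CC samples lay above all of them. The log2 difference was 0.67 ± 0.24 in UC against UU (SE, limma adjusted p = 0.181), -0.50 ± 0.24 in UU against CC (adjusted p = 0.323) and 0.18 ± 0.23 in UC against CC (adjusted p = 0.847). UC replicate 1 was the sample inside the UU range, and without it UC against UU reached 0.87 (adjusted p = 0.0533, and 0.0533 to 0.985 over 32 alternatives). The highest UC sample was replicate 2, the one with liver transcripts, without which UC against UU was 0.53 (adjusted p = 0.396).

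A second Dlat probe set, 1426264_at, gave the largest contrast among the complex subunits. It read 2352, 5825, 3765, 3056 and 4321 in UC, 2054, 1999, 1193 and 2311 in UU, and 2325, 4336, 2816, 2743 and 2920.0 in CC. Every UU sample lay below every UC and every CC sample, by a narrow margin at the closest pair. Over genes, 3.54% lay wholly above UU in UC and 3.63% wholly below CC in UU. The difference was 0.99 ± 0.26 in UC against UU (limma adjusted p = 0.0982 over 12236 probe sets) and -0.68 ± 0.26 in UU against CC (adjusted p = 0.226). Of all probe sets the share past the adjusted threshold was 0% for UC against CC, 0% for UU against CC and 0.539% for UC against UU, and none of the 16 was among them. At an unadjusted p under 0.05 over probe sets, 2 of 16 passed for UC against CC (9.19% of all), 3 for UU against CC (16.1%) and 2 for UC against UU (16.4%). Leaving out UC replicate 1 moved 1426264_at past the threshold, at 1.16 (adjusted p = 0.0429, and up to 0.263 over 16 alternatives). The first 2 Dlat probe sets correlated at r = 0.92.

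The dimmest Dlat probe set, 1452005_at, went another way, with r = 0.19 and 0.11 to the others. It averaged 1303 ± 124 in UC, 1234 ± 64 in UU and 1033 ± 139.5 in CC. All UC and all UU samples lay above all CC samples, and the share of such probe sets was not computed. Over genes, 0.995% lay wholly above CC in UC, and 348 of 7436 did in UU. The differences of 1452005_at from CC were 0.33 ± 0.13 in UC and 0.26 ± 0.14 in UU (limma adjusted p = 0.515 and 0.379). Against CC, the lower Dlat signal of UU thus held for 2 of 3 probe sets, and those 2 correlated at r = 0.92. In UC against UU all 3 lay above 0, at 0.67 for 1426265_x_at, 0.99 for 1426264_at and 0.07 ± 0.14 for 1452005_at. Which transcripts each one reads was not analysed here.

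**Figure D3:**
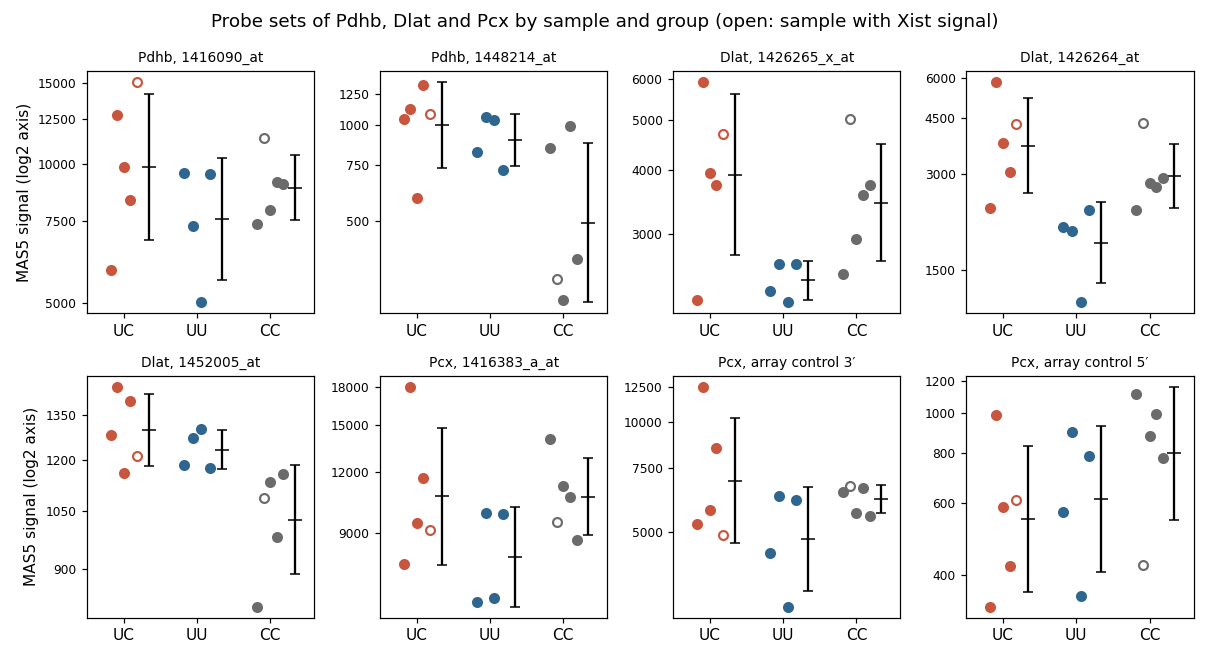
MAS5 signal (log2 axis) in every sample for the probe sets of Pdhb and Dlat and for 3 of Pcx, in UC, UU and CC, with the geometric mean and the SD of log2 values; open circles are CC replicate 2 and UC replicate 5. Dlat 1426264_at is lowest in UU while Dlat 1452005_at is lowest in CC, and 3 CC samples of Pdhb 1448214_at lie below every UC and UU sample.

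By their brightest probe sets, the complex subunits varied together over samples. Over the 14 samples the log2 values of Pdha1 correlated with those of Pdhb at r = 0.87 (Spearman 0.82) and with those of Dlat at r = 0.82 (Spearman 0.85), and Pdhb with Dlat at r = 0.81 (Spearman 0.80). Without CC replicate 2 and UC replicate 5 the 3 values of r were 0.90, 0.76 and 0.76. The samples share group, array scaling and tissue makeup, so these values are descriptions. Pdha1, Pdhb and Dlat also correlated with the epididymal marker level, at -0.64, -0.73 and -0.75, and with the adipocyte level, at 0.65, 0.59 and 0.72. In the same order, the brown adipocyte level gave 0.58, 0.73 and 0.56, and the macrophage level 0.55, 0.46 and 0.66. The 3′ to 5′ ratio gave -0.66, -0.48 and -0.22, and -0.77, -0.57 and -0.25 without CC replicate 2 and UC replicate 5. Of the other probe sets, Pdha1 1449137_at and Dlat 1426264_at followed the brightest set of their gene at 0.83 and 0.92. Pdhb 1448214_at and Dlat 1452005_at did not, at -0.12 and 0.19. UU replicate 3 was lowest for Pdha1, Pdhb and Dlat alike, and UC replicate 1 was lowest within UC for all 3. These were the samples with the highest 3′ to 5′ ratios of their groups, at 2.10 and 1.63. In UU the adipocyte marker level lay below that of every CC sample, and the macrophage marker level was lower on average, at 10.45 to 11.47 in UU, 11.31 to 12.80 in UC and 11.43 to 12.99 in CC. In whole tissue, fewer cells of a type and less RNA per cell cannot be told apart. With the adipocyte marker level in the fit, Pdha1 in UU against CC was -0.26 ± 0.29 and Dlat in UC against UU was 0.24 ± 0.31 (limma adjusted p = 0.9997 and 0.985). With the 3′ to 5′ ratio in the fit they were -0.36 ± 0.21 and 0.69 ± 0.24 (adjusted p = 0.537 and 0.144).

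Pdk4, the kinase induced by fasting, had the widest standard errors of the 7, and its highest signals were in the samples with Xist and brown fat marker signal. It read 4171, 3179.7, 2715, 2811.5 and 9406 in UC, 3073, 724, 1982 and 933 in UU, and 1018, 20521, 1452.5, 2364.5 and 1087.5 in CC, in replicate order. The values of 20521 and 9406 belong to CC replicate 2 and UC replicate 5. CC replicate 2 also had the highest skeletal muscle level, while CC replicate 5, with nearly the same muscle level, had Pdk4 at 1087.5. The other 4 UC samples, at 2715 to 4171, lay above the other 4 CC samples, at 1018 to 2364.5. That separation leaves out 2 samples chosen after seeing the data, and its share over all genes was not computed. Over all samples UC and CC overlapped. Of the UU samples, 3 of 4 lay below every UC sample and UU replicate 1 lay inside the range of UC. Over all samples Pdk4 averaged 4457 ± 2826 in UC, 1678 ± 1081 in UU and 5289 ± 8532 in CC (SD). The log2 difference was 0.71 ± 0.68 in UC against CC (limma adjusted p = 0.773), -0.74 ± 0.72 in UU against CC (adjusted p = 0.613) and 1.44 ± 0.72 in UC against UU (adjusted p = 0.304).

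These values turned on single samples. Without CC replicate 2 alone, UC against CC was 1.48 (limma adjusted p = 0.429) and UU against CC was 0.03. Without both samples with Xist signal, Pdk4 averaged 3219 ± 665 in UC, 1678 ± 1081 in UU and 1481 ± 619 in CC (n = 4 each). UC against CC was then 1.16 ± 0.39 (limma adjusted p = 0.349), UC against UU 1.13 ± 0.39 (adjusted p = 0.161) and UU against CC 0.03 ± 0.39. With the brown adipocyte marker level in the fit of all 14 samples, UC against CC was 0.71 ± 0.44 (adjusted p = 0.567) and UC against UU 1.22 ± 0.47 (adjusted p = 0.163). With the epididymal marker level and the 3′ to 5′ ratio in the fit, UC against CC changed sign, to -0.12 ± 0.50. The adjusted p of Pdk4 in UC against CC ran from 0.349 to 0.999 over 32 alternatives.

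**Figure D4:**
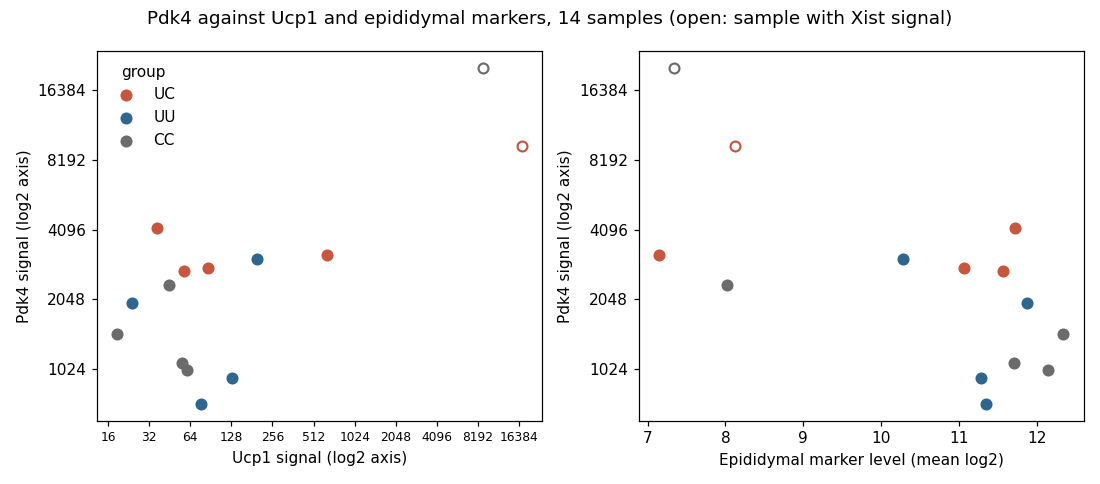
Pdk4 MAS5 signal (log2 axis) against Ucp1 signal (log2 axis, left) and against the mean log2 level of epididymal epithelium markers (right) in the 14 samples of UC, UU and CC; open circles are CC replicate 2 and UC replicate 5. These 2 samples have the highest Ucp1 and the highest Pdk4 and lie among the 4 low in epididymal markers, and the other 12 show Pdk4 from 724 to 4171 at Ucp1 of at most 642.4.

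Pdk1, the kinase isoform known as a hypoxia target, was lower in mean signal in UC and UU than in CC with wide spreads. Its brightest probe set read 769.8, 1692, 2459, 1161 and 987 in UC, 1686, 1609.9, 1002 and 1619 in UU, and 3121, 2041, 2294, 977 and 1392 in CC. The groups overlapped throughout, since the lowest CC sample lay below all 4 UU samples and below 4 of the 5 UC samples. The log2 difference was -0.48 ± 0.32 between UC and CC, -0.32 ± 0.34 between UU and CC and -0.15 ± 0.34 between UC and UU (limma adjusted p = 0.679, 0.643 and 0.840). The other probe set, 1423748_at, averaged 1162 ± 562 in UC, 1303 ± 229 in UU and 1212 ± 492 in CC and gave 0.23 ± 0.36 in UU against CC (adjusted p = 0.772), the opposite sign. The 2 Pdk1 probe sets correlated at r = 0.68.

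Pdk2, the most widely expressed kinase isoform, was read by 1 probe set and had the smallest standard errors of the 7. It read 1259.6, 1361, 1319, 1184 and 1390.3 in UC, 1287, 1445, 1313 and 1720.4 in UU, and 2052, 1648, 1228, 1321 and 1732 in CC. UC was the tightest group, at 1303 ± 83, against 1441 ± 199 in UU and 1596 ± 332 in CC, and all of its samples lay inside the range of CC or just below it. The log2 difference was -0.26 ± 0.15 in UC against CC (95% interval -0.58 to 0.05), -0.13 ± 0.16 between UU and CC, and -0.14 ± 0.16 between UC and UU (limma adjusted p = 0.629, 0.695 and 0.675).

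Pcx, the carboxylase, was read by 1 gene probe set and by 4 control probe sets that Affymetrix puts on the array for the same transcript, named 3′, 5′, MA and MB. The gene probe set read 7763, 17994, 9460.3, 11708 and 9132 in UC, 6503, 9887, 6612 and 9833 in UU, and 14052, 9496, 11248, 10680.5 and 8729 in CC. UC and CC overlapped, with UC replicate 2 highest of all, and 2 of 4 UU samples lay below every other sample. The log2 difference was 0.0029 ± 0.22 in UC against CC (95% interval -0.47 to 0.47), -0.41 ± 0.23 between UU and CC, and 0.41 ± 0.23 between UC and UU (limma adjusted p = 0.998, 0.384 and 0.361). Without UC replicate 2, the sample with liver transcripts, UC against CC was -0.18 and UC against UU 0.23 (limma adjusted p = 0.825 and 0.663). Quantile normalization turned the UC against CC value to -0.07, and with the adipocyte marker level in the fit UU against CC was 0.04.

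The 4 Pcx control probe sets gave different values. The 3′ set averaged 7389 ± 3179 in UC, 4992 ± 1509 in UU and 6183 ± 542 in CC, and the 5′ set averaged 588 ± 251 in UC, 653 ± 239.9 in UU and 838 ± 264 in CC. In UC against CC the 3′ set gave 0.17 ± 0.25 and the 5′ set -0.51 ± 0.32, and MA and MB gave -1.06 ± 0.58 and -0.93 ± 0.50 (limma adjusted p = 0.853, 0.624, 0.588 and 0.586). In UU against CC all 4 lay below 0, at -0.36 for the 3′ set, -0.35 for the 5′ set, -0.69 for MA and -0.88 for MB. The log2 ratio of 3′ to 5′ signal of Pcx was 3.58 ± 0.51 in UC, 2.90 ± 0.11 in UU and 2.90 ± 0.56 in CC (SD). The gene probe set correlated with the 3′ set at r = 0.88 and with the 5′ set at r = 0.63.

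The genes that work with the complex had lower mean signals in UU than in both other groups, and none passed the adjusted threshold. Of 11 genes listed as complex partners or pyruvate entry, 6 were on the array and 4 were tested: Dld, the last enzyme of the complex, Pdk3, another kinase isoform, Mpc1, a subunit of the mitochondrial pyruvate carrier, and Lias, which makes lipoic acid. In UU against CC 0 of 4 passed, all lay below 0 with a median of -0.77 against 0.05 over all genes, and 3 had an unadjusted p under 0.05, as did 7.75% of all genes in that direction. Mpc1 read 7513, 16465, 11630.2, 10912 and 16062 in UC, 5773, 7033, 3636 and 9496 in UU, and 10026, 13625, 10095, 11868 and 10572 in CC. All UU samples of Mpc1 lay below all CC samples, which held for 3.63% of all genes. Of its UC samples, 4 of 5 lay above all UU samples. Mpc1 gave -0.86 ± 0.26 between UU and CC, and 0.97 ± 0.26 between UC and UU (limma adjusted p = 0.161 and 0.0939), and in UC against UU it passed 0.05 in 4 of 32 alternatives, among them the fit without UC replicate 1 (adjusted p = 0.0367), and gave 0.23 ± 0.26 with the adipocyte marker level in the fit. Without UC replicate 2, its highest sample, it was 0.86 (adjusted p = 0.243).

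Dld gave -0.72 ± 0.23 in UU against CC, averaging 2886 ± 651 in UU and 4743 ± 1092 in CC (limma adjusted p = 0.174). Every UU sample of Dld lay below every CC sample, which held for 3.63% of all genes. Pdk3 gave -0.82 ± 0.27, averaging 462 ± 148 in UU and 827 ± 182 in CC (adjusted p = 0.174), and Lias gave -0.33 ± 0.16, averaging 1364 ± 59 in UU and 1723 ± 160.4 in CC (adjusted p = 0.320), its groups again not overlapping. In UC against UU the 4 genes lay above 0 with a median of 0.73, 3 of them at an unadjusted p under 0.05, as were 9.24% of all genes. In UC against CC 3 of 4 lay above 0 and the median was 0.0023.

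Of the other pathway genes, Ldha alone passed the adjusted threshold. Ldha, the lactate dehydrogenase subunit that takes pyruvate to lactate, read 16971, 30244, 21588, 24490.1 and 23981 in UC, 8231, 13813, 9651 and 15498 in UU, and 18250, 17696, 14387, 17595 and 20164 in CC. Every UC sample lay above every UU sample, which held for 3.54% of all genes, and UC and CC overlapped. It was higher in UC than in UU by 1.01 ± 0.20 (SE, limma adjusted p = 0.0345). The call was kept in 17 of 32 alternatives and lost in 15, with adjusted p from 0.0191 to 0.951. It was lost without CC replicate 1, UC replicates 2, 4 or 5, or UU replicates 1, 2 or 3 (adjusted p from 0.0529 to 0.132). UC replicate 2, with liver transcripts, was the highest sample, and without it the difference was 0.91 (adjusted p = 0.108). With the adipocyte marker level in the fit the difference was 0.47. In UC against CC Ldha gave 0.40 ± 0.19 and in UU against CC -0.62 ± 0.20 (adjusted p = 0.580 and 0.176).

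The pyruvate supply and disposal list, which holds Ldha, had 8 tested genes, of which 1 was higher in UC than in UU and the others did not pass. Over all genes tested, 0.847% passed between UC and UU in either direction. Ldhb, the other common lactate dehydrogenase subunit, averaged 11766 ± 6342 in UC, 9306 ± 3228 in UU and 8551 ± 4310 in CC. Among 7 genes of citrate export and oxaloacetate use none passed in any comparison, and the malate dehydrogenases Mdh2 and Mdh1 averaged 36462 ± 7014 and 30637 ± 6780 in UC, 31130 ± 2798 and 26379 ± 4128 in UU, and 28392 ± 8758 and 24633 ± 4009 in CC. Among 5 biotin carboxylases and biotin enzymes, relatives of Pcx by cofactor, none passed. All 5 lay below 0 in UU against CC, with a median of -0.31 against 0.05 over all genes, of which 55.3% lay above 0. Pcca, of propionyl-CoA carboxylase, averaged 7177 ± 1949 in UC, 4781 ± 406 in UU and 6519 ± 1925 in CC, and Mccc1, of methylcrotonyl-CoA carboxylase, 6724 ± 1441 in UC, 5340.1 ± 1072 in UU and 7007 ± 1466 in CC.

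Genes known to control the kinases, and other targets of the same signals, likewise gave no call. Of 9 tested PPAR target genes, the class to which Pdk4 belongs, 8 lay below 0 in UU against CC. The median of the 9 was -0.48, against 0.05 over all genes, of which 55.3% lay above 0. The fatty acid transporter Cd36 averaged 37417 ± 10549 in UC, 21350.1 ± 3322 in UU and 37849 ± 9139 in CC. Its UU samples lay below both other groups. Over all genes, 3.63% lay wholly below CC in UU and 3.54% wholly above UU in UC. Cd36 gave -0.80 ± 0.23 between UU and CC, and 0.77 ± 0.23 between UC and UU (limma adjusted p = 0.146 and 0.118). Fabp4, the adipocyte fatty acid binding protein, averaged 127253 ± 34800.1 in UC, 105700 ± 24031 in UU and 117414 ± 18238 in CC. Of 8 tested regulators of Pdk genes none passed; Hif1a, the hypoxia-inducible factor, averaged 5772 ± 1159.7 in UC, 5815 ± 1715 in UU and 5117 ± 360.04 in CC, and the insulin receptor substrate Irs1 5712 ± 2088 in UC, 5401 ± 1233 in UU and 6146 ± 2021 in CC. Of 9 tested hypoxia targets none passed; Pgk1, a glycolytic kinase, averaged 27400.4 ± 4914 in UC, 20277 ± 3839 in UU and 20548 ± 2501 in CC, and Bnip3, a mitochondrial protein of mitophagy, 16843 ± 3091 in UC, 13651 ± 1671 in UU and 17994 ± 5877 in CC.

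The genes whose log2 values followed each member most closely over the 14 samples are given with Pearson's r, as descriptions of samples that share scaling, group and tissue makeup. Pdha1 was followed by Coasy, which makes coenzyme A, at 0.95, by Mtch2 at 0.95 and by Fam162a at 0.93. Pdhb was followed by Chchd3, of the mitochondrial inner membrane, at 0.90, by Bckdhb, the beta subunit of the branched-chain ketoacid dehydrogenase, at 0.90 and by Gnpat at 0.89. Dlat was followed by Capn2 at 0.94, by Idh3a, of isocitrate dehydrogenase, at 0.93 and by Ndufab1, the mitochondrial acyl carrier protein, at 0.91. Pdk4 was followed by Sucla2, of succinyl-CoA ligase, at 0.87, by Spon2 at 0.87 and by the acute-phase gene Saa3 at 0.86. Without CC replicate 2 and UC replicate 5 its nearest genes were B3galnt1 at 0.84, Pim3 at 0.82 and Peg3 at 0.80, and none of the first 3 remained among them. Pdk1 was followed by Lama5 at 0.86, Hdac2 at 0.80 and Asnsd1 at 0.80, and Pdk2 by Actr1a at 0.81, Nt5c3 at 0.78 and Capg at 0.77. Pcx was followed by Bak1 at 0.87, Tdrp at 0.85 and Alas1, of heme synthesis, at 0.84.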

How the data were processed

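RNA of epididymal fat from 14 mice (5 UC, 4 UU and 5 CC, as the labels assign them) was measured on Affymetrix arrays. The deposited values are linear signal intensities that, per the submitters' processing notes, the authors made in GCOS 1.3 by MAS5. Scaling to 1 trimmed mean hides any change of total RNA. Symbols came from the platform annotation, updated through Entrez identifiers in RefSeq. Each gene was read by its brightest probe set over the 14 arrays. Values were taken as log2(value + 32), which understates changes of dim genes, and the dimmest 40% were left out, leaving 7436 genes or 12236 probe sets. All 14 arrays entered 1 limma fit (version 3.58.1 in R 4.3.3, eBayes with trend, residual degrees of freedom 11), with two-sided contrasts and Benjamini-Hochberg adjustment. Differences are given ± SE and signals ± SD. Data were simulated with 200 of 7436 genes changed 2-fold and independent noise for each gene. The fit recovered 65%, 65% and 66% of these changes in UC against CC, UU against CC and UC against UU. The simulation held no shared differences between arrays and more changed genes than were called here, so recovery in these data can be lower. The text names all members, every tested partner of the complex, the 2 brightest genes of each other list and the 3 genes nearest to each member by Pearson's r. Members, lists and tests were chosen with earlier results of these data known. Detection calls were not used here. The number of arrays limits the precision. Alternatives changed 1 setting at a time, except a fit with both the epididymal level and the 3′ to 5′ ratio. Figures were drawn with matplotlib 3.10.9.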

Additional observations from a re-analysis of the deposited data

Results flagged for a closer look

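In 4 of 48 groups of samples tested for a lone extreme (16 probe sets in 3 groups), 1 sample stood apart by Dixon's ratio, its gap to the nearest sample over the range of the group on the log2 scale, and chance flags about 1 group in 20. The Pdk4 probe set 1417273_at stood at 20521.1 in CC replicate 2, above the other CC samples (ratio 0.723 against a critical value of 0.71 for 5 samples). This is the CC sample with Xist and brown fat marker signal, and it has the highest skeletal muscle marker level, 10.91. The Pdha1 probe set 1418560_at was low in UU replicate 3, at 5202.3 (ratio 0.834), and the Pdk1 probe set 1423747_a_at was low in the same sample, at 1001.6 (ratio 0.911). UU replicate 3 had the highest 3′ to 5′ ratio of all samples, and the part of this in either value was not tested. The second Pdk1 probe set, 1423748_at, was low in CC replicate 4, at 398.4 (ratio 0.737 against 0.71), and without that sample its UU against CC difference changed sign to -0.12, from 0.23 over all samples.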

How the results depend on the processing

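None of the 7 genes passed an adjusted p of 0.05 in any of 672 values from 32 alternative settings in 3 comparisons (smallest 0.0533), and the sign changed in 26 of them. Pdk1, Pdk2 and Dlat for UC against CC, and Pdk1, Pdk2, Pdha1 and Dlat for UU against CC, kept their sign in every setting. So did Pdk2, Pdk4, Pdha1 and Dlat for UC against UU. Each gene was read here by its brightest probe set. Among the other probe sets of the 7 genes, 3 had the opposite sign to the brightest in UU against CC. These were Pdhb 1448214_at at 0.81, Dlat 1452005_at at 0.26 and Pdk1 1423748_at at 0.23. Pdha1 1449137_at and Dlat 1426264_at had the same sign as the brightest there, at -0.35 and -0.68, as did the 4 Pcx control probe sets. The fits without 2, 3 or 4 doubted samples and those with a marker level or the 3′/5′ ratio as covariate were chosen after seeing the data. With 4 or 5 arrays a group, a 2-fold change can be missed, and dim probe sets lie close to background. Whether replicate numbers pair the samples was not settled, because samples of different numbers were not compared. Deviations of same-numbered samples correlated at 0.45, 0.47, 0.50, -0.09 and -0.35 for replicates 1 to 5 in UC against CC. They correlated at 0.0062 to 0.29 in UU against CC and -0.17 to 0.15 in UC against UU. The replicate block gave 6 genes called for UU against CC and 95 for UC against UU, where the fit without it gave 0 and 63. The cause of the shifts below was not tested, except that fewer samples or more genes enter some fits by construction.

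The count of genes called in UU against CC (0) became 1 with no filter on dim genes, 3 with the dimmest 60% left out, 1 with quantile normalization, 13 with array weights, 1 when CC replicate 2 and UC replicate 5 (the 2 samples with Xist) were dropped, 1 when the 4 samples of low Gpx5 were, 18 with the epididymal level, 1 with the 3′/5′ ratio, 13 with both, 19 with the brown adipocyte level and 6 at an adjusted p under 0.1. The count in UC against UU (63) became 11 with no filter, 100 with median centring, 40 with the mean of probe sets, 7 with only the 2 groups, 3 without the 2 samples, 1 without the 4, 0 without the 3 of highest 3′/5′ ratio, 111 with that ratio, 143 with it and the epididymal level, 148 with the brown adipocyte level, 0 with the adipocyte level and 174 at 0.1. Probe sets called in UC against UU (66) became 16 with no filter. Leaving out 1 sample gave 0 to 2 genes for UU against CC and 0 to 108 for UC against UU. In UC against UU the count was 0 without UC replicate 2, 4 or 5 or UU replicate 1. It was highest without UC replicate 1.

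Signs changed as follows, none of these values past the threshold. With the 3′/5′ ratio, Dld and Pdha1 in UC against CC gave 0.15 and 0.12 and Pdhb in UU against CC 0.031. With it and the epididymal level, UC against CC gave 0.062 for Dld, 0.040 for Pdha1 and -0.12 for Pdk4, and Pdhb in UU against CC 0.11. With the epididymal level alone, Lias and Pcx in UC against CC gave -0.012 and -0.011. With the adipocyte level, UC against CC gave -0.0033 for Mpc1, -0.078 for Pcx and -0.00048 for Pdk3, UU against CC 0.044 for Pcx and 0.18 for Pdhb, and UC against UU -0.12 for Pcx and -0.10 for Pdhb. With array weights, UC against CC gave 0.00093 for Dld, -0.014 for Lias, -0.022 for Pcx and -0.14 for Pdk3. The mean of probe sets gave Pdhb 0.29 in UU against CC, and quantile normalization gave Pcx -0.071 in UC against CC. Without the 2 samples, UC against CC gave 0.055 for Dld and -0.20 for Pdk3, and UU against CC 0.031 for Pdk4. Without the 3, UC against CC gave 0.18 for Dld and 0.12 for Pdha1. Without the 4, UC against CC gave -0.090 for Lias, -0.055 for Mpc1, -0.23 for Pcx, -0.044 for Pdhb and -0.15 for Pdk3, and UU against CC 0.28 for Pdk4.

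With 1 sample left out, UC against CC ranged from -0.18 to 0.12 for Pcx, -0.24 to 0.051 for Dld, -0.13 to 0.14 for Pdk3, -0.082 to 0.13 for Lias, -0.0043 to 0.28 for Mpc1, -0.0024 to 0.33 for Pdhb, -0.37 to 0.12 for the Pdk1 probe set 1423748_at and -0.045 to 0.29 for the Pcx 3′ control. UU against CC ranged from -1.10 to 0.031 for Pdk4 and -0.12 to 0.36 for 1423748_at. UC against UU ranged from -0.38 to 0.029 for Pdk1, -0.40 to 0.016 for the Pcx 5′ control, -0.84 to 0.076 for MA and -0.38 to 0.51 for MB.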
